A study of Mus musculus with 8 samples.

Results

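The 9 gasdermin genes of the mouse that are described here are Gsdmc, Gsdmc2, Gsdmc3 and Gsdmc4 (the Gsdmc cluster), Gsdma, Gsdma2 and Gsdma3 (the Gsdma cluster), Gsdmd and Gsdme. All 9 were found by symbol among the 49315 genes counted. The family was chosen by the measured difference of Gsdmc and Gsdmc2 between wild-type (WT) and Tgfa knockout (KO) epidermis in these libraries, and the other members were added by name. The KO against WT values of the members are therefore a description, with no test. RNA was sequenced from epidermis isolated from back skin of mice aged 22 months, in 3 WT libraries and 5 Tgfa KO libraries, and the labels name the cells as keratinocytes. The Tgfa gene codes for TGF-alpha, which binds and activates the EGF receptor. The sources used here do not give the strain, the structure of the knockout allele or whether each library came from 1 animal, so the p-values reflect only how these libraries vary, which may be technical.

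Gasdermins are proteins that are held inactive until a protease cuts them between 2 domains. The freed amino-terminal part forms pores in membranes, which lets out cytokines of the interleukin-1 family and can end in a lytic cell death called pyroptosis. Gsdmd is cut by inflammatory caspases. GSDMC of human cells can be cut by caspase-8, and the mouse genes Gsdmc2 to Gsdmc4 are known from gut epithelium, where type 2 cytokines induce them. Genes of the Gsdma group are known from skin, and mutant alleles of Gsdma3 cause hair loss in mice. The title of the series names progressive hair loss in ageing mice that lack Tgfa.

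The members fall into 4 loci on GRCm38. The Gsdmc cluster spans 136.3 kb at chr15:63775968-63912297, with its 4 genes on the minus strand, and 3 Gsdmc-like pseudogenes (Gsdmcl1, Gsdmcl2 and Gsdmcl-ps) lie within or beside it. Gsdmd lies on the same chromosome, 12 Mb away, at chr15:75862339-75867404. The Gsdma cluster spans 51.3 kb at chr11:98626360-98677708, with its 3 genes on the plus strand. Gsdme lies at chr6:50188888-50263862 on the minus strand, 35.9 Mb from Tgfa, and its span overlaps that of Mpp6 on the opposite strand, with no shared exon bases.

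Genes within each cluster are close copies, and this bears on how reads can be assigned to them. The first 90 coding bases are shown for the Gsdmc cluster, from GENCODE M21 transcripts on GRCm38, 5′ to 3′ in the sense of the transcript. Capitals mark bases that differ from Gsdmc at the same position.
Gsdmc: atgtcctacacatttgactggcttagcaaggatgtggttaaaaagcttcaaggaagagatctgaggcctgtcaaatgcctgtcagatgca
Gsdmc2: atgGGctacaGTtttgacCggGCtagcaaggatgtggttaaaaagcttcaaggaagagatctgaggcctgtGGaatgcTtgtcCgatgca
Gsdmc3: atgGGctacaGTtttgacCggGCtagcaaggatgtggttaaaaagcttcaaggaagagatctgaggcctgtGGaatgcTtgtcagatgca
Gsdmc4: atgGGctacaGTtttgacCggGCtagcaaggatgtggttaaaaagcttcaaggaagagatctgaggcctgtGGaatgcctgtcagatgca
Gsdmc2, Gsdmc3 and Gsdmc4 differed from Gsdmc at 11, 10 and 9 of these bases. Over the whole coding sequence Gsdmc was 86.7% to 87.5% identical to the other 3, while Gsdmc2 and Gsdmc3 were 97.1% identical to each other. Of all windows of 100 bases in the annotated transcripts of Gsdmc, 93% were found in no transcript of another gene, against 71.4% for Gsdmc2, 71.6% for Gsdmc3 and 79.8% for Gsdmc4. The split of counts among Gsdmc2, Gsdmc3 and Gsdmc4 is therefore less certain than the counts of Gsdmc.

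The Gsdma cluster is shown in the same way, because its 3 genes had very unequal counts. Capitals mark bases that differ from Gsdma.
Gsdma: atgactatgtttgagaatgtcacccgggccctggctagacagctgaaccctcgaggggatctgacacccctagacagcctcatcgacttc
Gsdma2: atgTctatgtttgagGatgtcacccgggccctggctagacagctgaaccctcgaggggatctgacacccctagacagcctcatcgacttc
Gsdma3: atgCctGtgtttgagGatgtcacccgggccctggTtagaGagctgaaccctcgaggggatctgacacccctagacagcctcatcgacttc
Gsdma2 and Gsdma3 differed from Gsdma at 2 and 5 of these bases, and were 90.4% and 90.7% identical to it over the coding sequence. Their similarity is spread over the sequence, so 98.2% of the windows of Gsdma, 98.6% of Gsdma2 and 100% of Gsdma3 were found in no other gene, as were 100% for Gsdmd and Gsdme. Between the 4 loci, identity of the coding sequences was 52.6% to 57.3%.

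Libraries held 5313552 to 18292303 counts, and some stood apart in ways that touch scarce members. In CPM (counts scaled to a fixed library total), olfactory and vomeronasal receptor genes, which act in the nose, summed to 3724.82 in KO replicate 2, 613.48 in WT replicate 3, 266.83 in WT replicate 2, while the remaining 5 libraries had 34.33 to 64.59. The nuclear RNA Malat1 made up 6.61% of WT replicate 3, 4.88% of the library labelled KO replicate 1 and 1.34% to 1.84% of every other library. In CPM scaled with TMM factors, the other KO libraries had 34.39 to 70.15 of Tgfa. The library labelled KO replicate 1 had 131.71, above all 3 WT libraries (85.07 to 111.69). Its place above WT replicate 3 rests on the scaling, since its TMM factor was the lowest (0.78). Relative to unscaled library totals, its Tgfa lay below that of WT replicate 3 (1787 of 17417500 counts, against 1429 of 12968728). How much Tgfa RNA the knockout should leave is not known, so these levels cannot settle whether its label is right. KO replicates 3 to 5 have names ending in bl, and the remaining 5 libraries, all WT ones among them, have names ending in br. The labels do not explain these endings, and for the bl libraries the ending and the genotype cannot be told apart. Keratinocyte markers were abundant: in CPM scaled with TMM factors, 7 basal genes summed to 4722 to 15220 and 6 spinous genes to 8159 to 23790. On that scale, which the sums of receptor genes above do not share, 4 endothelial genes summed to 1.29 to 45.7 and 6 fibroblast genes to 3.94 to 74.

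Gsdmc was the member with the widest gap between the groups in level. In CPM scaled with TMM factors, as for all members, it was 2.57, 0.73 and 2.42 in WT replicates 1 to 3 (46, 11 and 31 counts). Across KO replicates 1 to 5 its level was 56.75, 11.29, 38.64, 48.1 and 21.85 CPM (770, 65, 618, 843 and 314 counts). Every KO library lay above every WT library, and KO replicate 2, the shallowest library, was the lowest of the 5. Mean levels were 1.91 ± 1.02 CPM for WT (SD, n = 3) and 35.3 ± 18.7 CPM for KO (SD, n = 5), with a log2 fold change of 4.21 (SE 0.65). This was 3.97 without the library labelled KO replicate 1 and 4.17 among libraries ending in br alone. In bulk epidermis, more cells that express a gene and more RNA per cell cannot be told apart. Among the cell markers, 4 of 6 upper hair follicle genes had an unadjusted p under 0.05 in edgeR over all libraries, and 0 were called in that fit. Over all genes, 1209 of 19239 had such a p, and this list held the most of the 13 cell marker lists. Krt17 (log2 fold change -0.24, SE 0.56) and Lrig1 (0.22, SE 0.21), of the same list, differed little. Krt79, a keratin gene of the follicle opening, had 131 ± 28.6 CPM for WT against 357 ± 143 for KO (log2 fold change 1.44, SE 0.34), Sostdc1, a secreted inhibitor gene, 8.21 ± 2.66 against 30.6 ± 15.6 (1.9, SE 0.48), and Plet1, another follicle gene, 374 ± 146 against 116 ± 69.8 (-1.69, SE 0.47). Limma voom with library weights called Krt79 and Sostdc1 higher and Plet1 lower (adjusted p = 0.00467, 0.00627 and 0.0271), among 6.6% of genes. Without WT replicate 3 and KO replicates 1 and 2, edgeR called Sostdc1 alone of the 6 (2.02, adjusted p = 0.00237), among 10.6% of genes. The summed level of the 6 genes was 821 to 1792 CPM in WT and 904 to 1991 in KO. The part of these markers in the values of Gsdmc was not tested.

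Gsdmc2 followed Gsdmc at a lower level. Its WT values were 0.5, 0.07 and 0.39 CPM (9, 1 and 5 counts), and its values in KO replicates 1 to 5 were 1.92, 7.99, 9.32, 8.56 and 4.04 CPM (26, 46, 149, 150 and 58 counts). The groups did not overlap, and the lowest KO value was that of the library labelled KO replicate 1, which was the highest for Gsdmc. The ratio of Gsdmc to Gsdmc2 therefore differed between KO libraries. The log2 fold change was 4.27 (SE 0.81), with 429 counts in all over the KO libraries and 15 over the WT libraries. Over the 8 libraries, log2 CPM of Gsdmc and Gsdmc2 had a Pearson r of 0.86 and a Spearman rho of 0.71, and r was 0.63 without the 2 libraries farthest from the median of Gsdmc. This is a description, since both genes differ between the groups and share libraries, and reads of one could be counted for the other.

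The remaining pair of the cluster, Gsdmc3 and Gsdmc4, was scarce and overlapped between groups. Gsdmc3 had 0, 4 and 9 counts in WT (0, 0.26 and 0.7 CPM) and 2, 21, 12, 3 and 3 in KO (0.15, 3.65, 0.75, 0.17 and 0.21 CPM). Gsdmc4 had 0, 3 and 30 counts in WT (0, 0.2 and 2.34 CPM) and 26, 46, 1, 8 and 4 in KO (1.92, 7.99, 0.06, 0.46 and 0.28 CPM). Gsdmc4 was thus highest in WT replicate 3, the library labelled KO replicate 1 and KO replicate 2, and at most 0.46 CPM in the other 5 libraries. These 3 libraries also had the highest sums of 8 neutrophil and macrophage genes (78.9, 103 and 61.7 CPM, against 11.8 to 27.3 elsewhere). They were highest too for 6 fibroblast genes (39.6, 39.8 and 74 CPM, against 3.94 to 34.4) and 5 skeletal muscle genes (11.1, 7.96 and 29.2, against 0.875 to 4.59). For 7 basal keratinocyte genes they were lowest (4722, 7914 and 6389 CPM, against 12290 to 15220). Not every list split this way: 4 endothelial genes summed to 10.9, 4.42 and 45.7 CPM in these 3 libraries and 1.29 to 5.03 elsewhere. For 6 T cell genes the sums were 30, 55.9 and 81.6 CPM, against 64 to 145 elsewhere. None of these sums was corrected for the rate on nasal receptor genes. A part of any of these cells in the values of Gsdmc4 was not tested. The 8 neutrophil and macrophage genes did not move together. Cd68, a macrophage gene, had 711 and 982 counts in WT replicate 3 and the library labelled KO replicate 1, and 39 to 119 in the other 6. Itgam, a gene of both cell types, was lowest in those same libraries (8 and 10 counts, against 19 to 42). Lyz2, which encodes lysozyme, had 83 and 75 counts there, within its range elsewhere (46 to 122). These counts are not scaled for depth. KO replicate 2, the shallowest library, had the highest counts of Itgam and Lyz2 (42 and 122), and the highest rate on nasal receptor genes (4.54 counts per kb). Ly6g, a defining neutrophil gene, had 8, 0 and 12 counts in the 3 libraries. In the same order, S100a8 had 7, 129 and 13 counts (0 to 75 elsewhere) and S100a9 had 5, 46 and 10 (4 to 17). Csf3r had 12, 4 and 40 counts (0 to 9 elsewhere) and Adgre1 had 175, 146 and 59 (42 to 143). The log2 fold change of Gsdmc3 was 1.54 (SE 1.49), with 2.75 when WT replicate 3 was left out and 0.9 when WT replicate 1 was. That of Gsdmc4 was 1.31 (SE 1.68), with 4.28 and 0.66 in the same order and 0.42 when WT replicate 2 was left out.

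**Figure D1:**
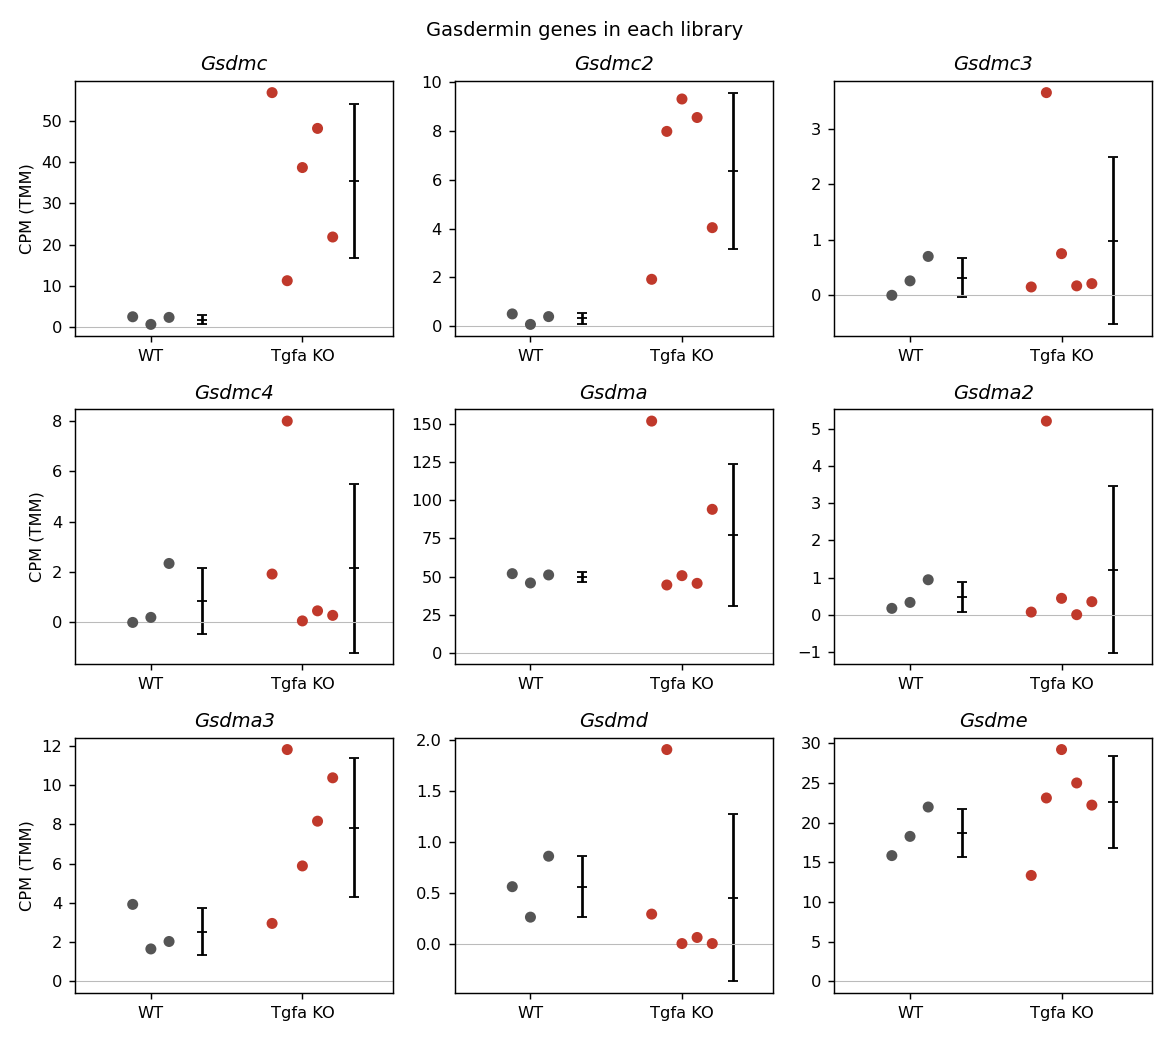
Each panel gives 1 gasdermin gene, with CPM (TMM scaled, linear axis) of the 3 WT libraries (grey) and the 5 Tgfa KO libraries (red, replicates 1 to 5 from left to right), and the mean with SD beside them. Gsdmc and Gsdmc2 do not overlap between groups, Gsdma is high in KO replicates 1 and 5 (151.83 and 94.02 CPM), and the high point of Gsdmc3, Gsdmc4, Gsdma2 and Gsdmd is KO replicate 2 each time.

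Gsdma, which is expressed in epidermis and follicles of normal skin, was the most abundant gasdermin of WT epidermis. Its WT values were 51.89, 45.78 and 51.04 CPM, and it stood at 151.83, 44.46, 50.58, 45.53 and 94.02 CPM in KO replicates 1 to 5. Values of KO replicates 2 to 4 lay inside or just below the WT range, and the library labelled KO replicate 1 and KO replicate 5 lay above it. The log2 fold change was 0.64 (SE 0.42), and 0.24 without the library labelled KO replicate 1. The same 2 libraries had the highest sums of 8 granular and cornified layer genes (11740 and 8525 CPM, against 1338 to 7155 in the others), which is given beside Gsdma as a measurement, and whose part in its value was not tested.

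Gsdma3, the gene whose mutant alleles cause hair loss, was higher in KO by its mean but overlapped with WT. Its values were 3.92, 1.65 and 2.03 CPM in WT (70, 25 and 26 counts) and 2.95, 11.81, 5.88, 8.16 and 10.37 CPM in KO (40, 68, 94, 143 and 149 counts). The library labelled KO replicate 1 lay inside the WT range, and the other 4 KO libraries lay above it. The log2 fold change was 1.61 (SE 0.52), 1.83 without that library and 1.4 without KO replicate 2. Gsdma and Gsdma3, which lie in 1 cluster, had little correlation over the 8 libraries (r = -0.05, rho = -0.29, and r = -0.4 without the 2 libraries farthest from the median of Gsdma), and Gsdma3 and Gsdmc2, on different chromosomes, had r = 0.87 and rho = 0.76 (r = 0.68 without the 2 farthest for Gsdmc2). Both are descriptions over shared libraries. Inner root sheath and hair shaft genes, which mark hair growth, summed to 727 CPM in KO replicate 5 and to 24.6 to 74.1 in the other 7 libraries, and Gsdma3 was also high in KO replicates 2 and 4, where those sums were 70 and 52.5 CPM. Gsdma2 had at most 12 counts outside KO replicate 2, where it had 30.

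Gsdme differed little between the groups and Gsdmd was close to absent from the counts. Gsdme had 15.84, 18.26 and 21.96 CPM in WT and 13.34, 23.1, 29.2, 24.99 and 22.2 CPM in KO, with overlapping groups and a log2 fold change of 0.27 (SE 0.27). Its sign was not stable: the value was -0.13 among libraries ending in br, -0.05 with the label ending as a covariate and -0.03 without WT replicate 2. Gsdmd, the gasdermin of inflammasome-driven pyroptosis, had 10, 4 and 11 counts in WT (0.56, 0.26 and 0.86 CPM) and 4, 11, 0, 1 and 0 counts in KO (0.29, 1.91, 0, 0.06 and 0 CPM). The 3 KO libraries ending in bl held 1 count of it in all, where a count of 0 in a library allows up to 3 counts. Pjvk, a distant family member known from the inner ear, had 0 to 3 counts in 7 libraries and 12 in KO replicate 2.

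Counts on genes that should be silent in skin set a floor for the scarce members. Receptor genes of the nose carried 4.54 counts per kb in KO replicate 2, 1.83 in WT replicate 3, 0.929 in WT replicate 2 and 0.122 to 0.258 in the others. At the rate of KO replicate 2, 8.1 counts would be expected on Gsdmd (11 observed), 10.6 on Gsdmc3 (21 observed), 14 on Gsdma2 (30 observed) and 9.5 on Gsdmc4 (46 observed). Gsdmc had 65 counts there against 10.9 expected. In KO replicates 1, 3, 4 and 5 the counts of Gsdmc were 1070 to 1905 times those expected, and in WT replicates 1 to 3 they were 132.8, 4.9 and 7.1 times. Counts above 2 times the expected and above 3 were found in 8 of 8 libraries for Gsdmc, Gsdma, Gsdma3 and Gsdme, in 6 for Gsdmc2, 5 for Gsdmc4, 4 for Gsdma2 and Gsdmd, and 2 for Gsdmc3. With this rate subtracted from all genes, the log2 fold change was 4.26 for Gsdmc, 4.87 for Gsdmc2 and 1.71 for Gsdma3.

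**Figure D2:**
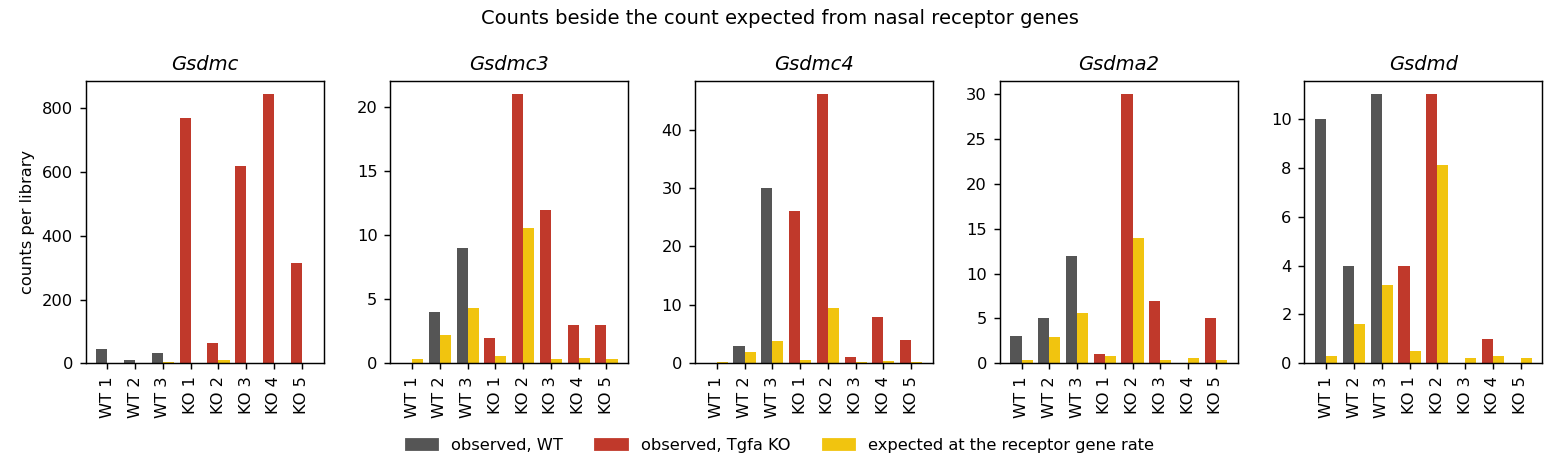
Bars give the observed counts per library for 5 gasdermin genes (grey WT, red Tgfa KO, linear axes that differ between panels) and, in yellow, the count expected from the rate per kb on nasal receptor genes. Gsdmc stands far above the expected count in 4 KO libraries, while Gsdmd in KO replicate 2 has 11 counts where 8.1 are expected.

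Compared per kb of the gene length in the files, the order of the members differed between the groups. In WT, Gsdma stood first at 18.2 ± 1.22 CPM per kb (SD, n = 3), Gsdma3 (1.57 ± 0.752) and Gsdme (1.47 ± 0.242) came next and overlapped, then Gsdmc at 0.793 ± 0.426, and the other 5 were at 0.138 to 0.406. In KO, Gsdma (28.4 ± 17) and Gsdmc (14.7 ± 7.76, n = 5) overlapped at the top, Gsdmc being first in KO replicate 4, before Gsdma3 (4.85 ± 2.19), Gsdmc2 (2.75 ± 1.39) and Gsdme (1.77 ± 0.457). The place of Gsdme depends on the length used. The files give it 12742 bases, and with the 2502 bases of its transcript with the longest coding sequence its level was 7.47 ± 1.23 in WT and 9.02 ± 2.33 in KO, above Gsdma3 in both groups.

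The Gsdmc cluster took 2.69% to 10.4% of the summed gasdermin level per kb in WT libraries and 20.5% to 50.3% in KO libraries. Its sum was 0.54 to 2.6 CPM per kb in WT and 11.1 to 25.4 in KO, while that of the Gsdma cluster was 17.9 to 21.5 in WT and 21.8 to 57.6 in KO. The summed level of all 9 genes was 23.2 ± 2.73 in WT and 54.5 ± 17.2 in KO. These shares and sums use the gene lengths in the files. With the shorter transcript length for Gsdme, its mean level was 7.47 in WT and 9.02 in KO. The summed level would then be higher and the share of the Gsdmc cluster lower in both groups. Within the cluster, Gsdmc itself made up 78.6% to 92.9% in KO replicates 1, 3, 4 and 5, and 34.7% in KO replicate 2.

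**Figure D3:**
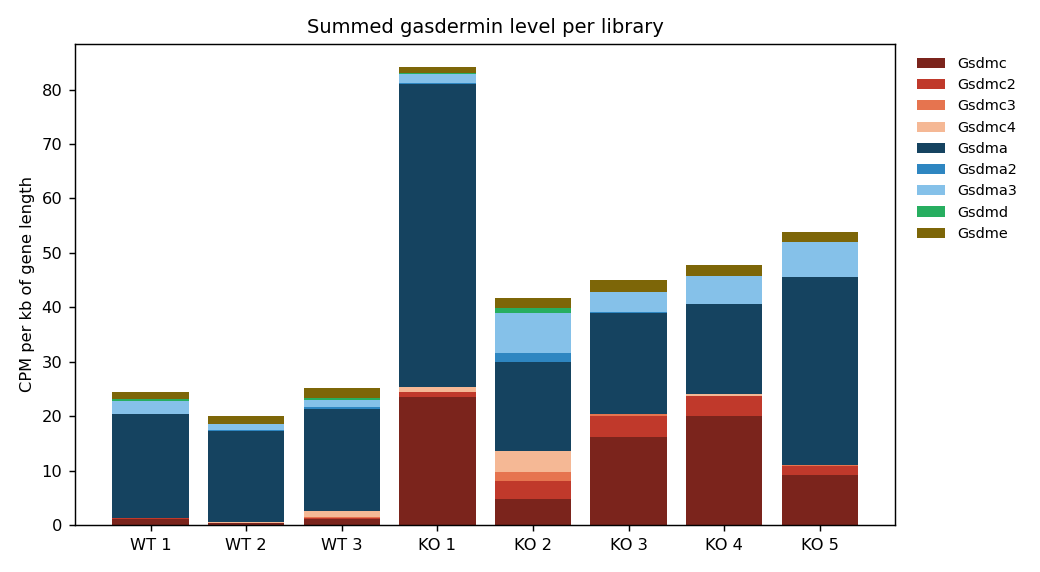
Stacked bars give the level of each gasdermin gene in CPM per kb of gene length (linear axis from 0) in the 8 libraries. WT bars are mostly Gsdma, and the Gsdmc cluster (red shades) reaches 11.1 to 25.4 CPM per kb in KO libraries.

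Over all genes, the edgeR quasi-likelihood test of KO against WT called 1 of 19239 genes at a Benjamini-Hochberg adjusted p under 0.05, or 0.0052%, and 0 of the 7 members that passed the filter on low counts (Gsdma2 and Gsdmd did not). At an unadjusted p under 0.05 it listed 1209 genes. The log2 fold change had a median of 0.16 over all tested genes, of which 61.9% were positive, and a median of -0.01 with library weights. DESeq2 called 2 members, Gsdmc and Gsdmc2, where it called 0.319% of genes. Limma voom with library weights, in which WT replicate 3 and KO replicates 1 and 2 weigh 0.28 to 0.37 and the others 1.47 to 2.26, called 3 members (Gsdmc, Gsdmc2 and Gsdma3, all higher) and 6.6% of genes. EdgeR without those 3 libraries called the same 3 of 5 members tested, and 10.6% of genes. No member was called by edgeR without a filter (0.0202% of genes), with the receptor gene rate subtracted (0.00552%), without WT replicate 1 (0.00428%) or without the library labelled KO replicate 1 (0.00531%). Groups did not overlap, with KO higher, in 2 of 7 members and in 3.4% of all tested genes (5.15% in either direction). Since this contrast chose the members, these counts are given with nothing read from them.

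How the members varied within the KO group was tested between libraries of the 2 name endings, a contrast that the choice of members did not use. KO libraries ending in bl minus those ending in br gave log2 differences of 0.03 for Gsdmc (SE 0.62, edgeR adjusted p = 0.987), 0.51 for Gsdmc2 (SE 0.7, adjusted p = 0.747), -2.35 for Gsdmc3 (SE 1.42, adjusted p = 0.429) and -4.23 for Gsdmc4 (SE 1.06, adjusted p = 0.161). Gsdmc4 had 26 and 46 counts in the br libraries and 1, 8 and 4 in the bl ones. It passed the filter through the group where it was high, so its values in this contrast are a description. The value of Gsdmc4 was -2.82 without KO replicate 2 and -4.89 without KO replicate 4. Gsdma (-0.67), Gsdma3 (0.09) and Gsdme (0.43) had edgeR adjusted p from 0.505 to 0.957. EdgeR called 0 of 19026 genes (0%), 3339 at an unadjusted p under 0.05, and DESeq2 called Gsdmc4 alone among the members, and 4.36% of genes. EdgeR called no member without a filter (5.5% of genes) or without KO replicate 5 (0.0108%). Leaving out either of KO replicates 1 and 2 left a single library ending in br. The spread between br libraries was then not measured, so the calls of those fits are listed with nothing read from them. Without the library labelled KO replicate 1, the br library left was KO replicate 2, the shallowest, with the highest rate on nasal receptor genes. With 2 and 3 libraries the result rested on single libraries: without the library labelled KO replicate 1, Gsdmc was 1.73, and Gsdmc, Gsdmc3, Gsdmc4 and Gsdma2 were called among 47.2% of genes. Without KO replicate 2, Gsdmc was -0.67, and Gsdmc2, Gsdma3 and Gsdme were called among 23.9% of genes.

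Genes near the gasdermin loci did not share the values of the Gsdmc cluster. Of the 5 nearest protein-coding genes, by their starts, on each side of the 4 loci, 40 in all, 26 passed the filter and 0 were called (edgeR), with log2 fold changes from -0.83 (Tigd5, beside Gsdmd) to 1.32 (Zfp41, beside Gsdmd) and a median of 0.04. Of the 10 neighbours of the Gsdmc cluster, 5 passed the filter. On its far side, Fam49b had -0.1 (SE 0.25) and Asap1 0.22 (SE 0.27). Myc, a transcription factor gene, had -0.48 (SE 0.33). It is not close, since it ends at chr15:61990374 and the cluster starts at chr15:63775968. Beside the Gsdma cluster, Psmd3, a proteasome subunit gene, had -0.12 (SE 0.3), Ormdl3, a regulator of sphingolipid synthesis, -0.23 (SE 0.4) and Nr1d1, a clock repressor gene, 0.2 (SE 0.5). Gsdmcl-ps, the 1 Gsdmc-like pseudogene that passed the filter, had 0.03 (SE 1).

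Pathway genes around the gasdermins were listed with earlier results of these data known, as 6 lists of 64 genes. EdgeR called 0 of the 55 that passed the filter, and 3 had an unadjusted p under 0.05. The median log2 fold change was 0.03, against 0.16 over all tested genes.

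The sensors and the adaptor of inflammasomes, which activate caspase-1, had 9 of 12 positive values and a median of 0.49, but 4 of 12 and -0.09 with library weights, and 3 of 11 and -0.2 without WT replicate 3 and KO replicates 1 and 2. The direction of this list therefore turned with those 3 libraries. The most abundant of them was Nek7, a partner of the sensor NLRP3, with 162 ± 28.9 CPM for WT against 161 ± 27.9 for KO (log2 fold change -0.01, SE 0.23). Nlrp10, a sensor expressed in epidermis, had 121 ± 14.9 against 101 ± 25.8 (-0.26, SE 0.26), and Pycard, the adaptor, had 55.6 ± 13.9 against 70.2 ± 19.9 (0.34, SE 0.29).

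Among proteases that cut gasdermins (4 of 6 positive, median 0.18), caspase genes were the most abundant. Casp8 had 24.5 ± 4.72 CPM for WT against 29.2 ± 9.53 for KO (log2 fold change 0.26, SE 0.29), and Casp1 was 19.2 ± 4.95 and 21.3 ± 5.25 (0.15, SE 0.28). Casp4, which senses bacterial lipopolysaccharide, was 60.5 ± 15 and 38.3 ± 11.6 (-0.66, SE 0.29, edgeR adjusted p = 0.781). Elane, Ctsg, Gzma and Gzmb, which encode proteases of neutrophils and killer lymphocytes, did not pass the filter. In the rupture and repair list (6 of 8 positive, median 0.11), the genes of membrane repair Pdcd6ip, Vps4b and Chmp3 had log2 fold changes of -0.14 (SE 0.27), 0.15 (SE 0.21) and 0.13 (SE 0.24). Ninj1, whose product breaks the plasma membrane after pores form and which was picked after its values were seen, had 3.8 ± 0.176 against 6.54 ± 1.12 CPM (log2 fold change 0.78, SE 0.31, edgeR adjusted p = 0.695).

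Cytokines and antagonists released or blocked downstream had negative values in 6 of 7, with a median of -0.52, and none was called by edgeR on 8 libraries. Il1b, an interleukin-1 gene, had 3.38 ± 0.927 CPM for WT against 2.16 ± 1.71 for KO (log2 fold change -0.66, SE 0.7, edgeR adjusted p = 0.931), and Il18bp, which encodes a binding protein that blocks interleukin-18, 20.6 ± 3.06 and 12 ± 2.62 (-0.78, SE 0.24, adjusted p = 0.58). The most abundant were Il1rn, the interleukin-1 receptor antagonist, with 187 ± 19.4 against 149 ± 36 CPM, and Il33, an alarmin of epithelium, with 187 ± 191 against 113 ± 59.5 CPM. The log2 fold change of Il33 was -0.73 (SE 0.6), and it was 0.23 with library weights and 0.35 without WT replicate 3 and KO replicates 1 and 2. Without WT replicate 3 and KO replicates 1 and 2, edgeR called Il18bp (-0.86, adjusted p = 0.0312), Il1b (-1.64, adjusted p = 0.0494) and Smad7, an inhibitor of TGF-beta signalling (-0.83, adjusted p = 0.0478), all lower, where 10.6% of genes were called. The same fit called Cd207, which encodes langerin of Langerhans cells, lower (-1.22, edgeR adjusted p = 0.0298), and all 6 Langerhans cell genes had negative values (median -0.9, and -0.68 over 8 libraries). Their summed level was 727 to 1049 CPM in WT and 314 to 1006 in KO, and its part in the cytokine values was not tested.

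Neither the type 2 cytokine genes (median -0.03, 6 of 12 positive) nor the TGF-beta receptor pathway genes (median -0.29, 3 of 10 positive) held a call in edgeR on 8 libraries. Jak1, a kinase gene of cytokine receptors, Il13ra1, a receptor chain gene of interleukin 13, and Stat6, the transcription factor gene of this pathway, had log2 fold changes of -0.18 (SE 0.26), -0.15 (SE 0.26) and 0.3 (SE 0.33). Those of the receptor genes Tgfbr3 and Tgfbr2 and of Smad4, which carries the TGF-beta signal to the nucleus, were -0.35 (SE 0.23), -0.27 (SE 0.27) and -0.17 (SE 0.24).

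**Figure D4:**
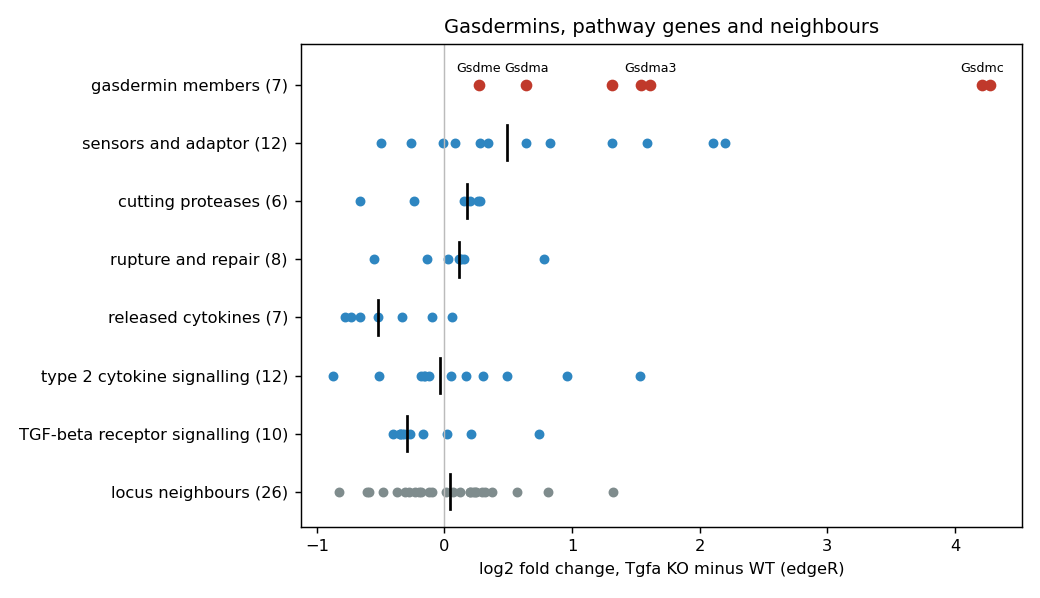
Points give the edgeR log2 fold change (Tgfa KO minus WT) of the 7 gasdermin members that passed the filter (red), of the genes of 6 pathway lists (blue) and of the neighbours of the gasdermin loci (grey), with black bars at list medians and the number of genes in brackets. Gsdmc and Gsdmc2 lie at 4.21 and 4.27, and the neighbours between -0.83 and 1.32.

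The genes whose log2 CPM followed Gsdmc and Gsdma most closely over the 8 libraries were different sets. For Gsdmc, among 12496 genes with a mean of at least 2 CPM, they were Stfa3, a stefin gene (r = 0.987, rho = 0.95), Sprr2a3, a small proline-rich protein gene of the cornified envelope (0.983, 0.93), Postn, which encodes periostin (0.972, 0.93), Sema4c, a semaphorin gene (0.964, 0.83), and Mlst8, which encodes a subunit of mTOR complexes (0.962, 0.9). Without WT replicates 2 and 3, the libraries farthest from the median of Gsdmc, r was 0.91 to 0.98 for these 5. WT replicate 1 was then the only WT library left, so these r can still rest on it. Stfa3 had 0.532 ± 0.415 CPM for WT against 8.5 ± 3.22 for KO, and Postn 52.5 ± 21.5 against 190 ± 54. For Gsdma they were Ciart, a circadian repressor gene (r = 0.973, rho = 0.93), Pld2, a phospholipase D gene (0.962, 0.9), Slurp1, which encodes a protein secreted by keratinocytes (0.959, 0.74), Calm4, a calmodulin-like gene (0.958, 0.74), and Pnpla1, an enzyme gene of barrier lipid synthesis (0.948, 0.98). Without KO replicates 1 and 5, where Gsdma was high, r was 0.45 for Ciart, 0.43 for Calm4 and 0.71 to 0.86 for the other 3, so the first 2 relations rest on those libraries. These are the highest of many values over 8 libraries that share their depth, scaling and genotype, and are given with no test.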

How the data were processed

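Libraries were made from Trizol-extracted RNA with a NEBNext Ultra II kit and read from both ends, per the labels' protocols. The authors deposited whole-number counts per gene, which were used as they stand, and a gene length. The submitters' processing notes list STAR 2.5.2b, Trimmomatic 0.36, Subread 1.5.2 with featureCounts, and the builds GRCh38 and GRCm38. The sources used here do not give strand settings or how reads with several matches were treated. Gene identifiers are those of mouse, per the file headers. Of 49315 genes, 49056 matched GENCODE M21 (GRCm38). Groups follow the genotype label, and replicates follow the order of deposition and pair nothing.

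Tests used edgeR 4.0.16 in R 4.3.3 (TMM, filterByExpr, quasi-likelihood, Benjamini-Hochberg adjusted p under 0.05), with DESeq2 1.42.0 and limma 3.58.1 as alternatives. On simulated data with the spread of these libraries, the KO against WT fit called 120 of 184 genes changed 8-fold, and 3 unchanged genes, among 18381. Library totals were 5313552 to 18292303. Members and lists were chosen with earlier results of these data known. Log2 CPM used a prior count of 2. SE of a log2 fold change comes from the F statistic. Gsdma2 and Gsdmd, below the filter, have fold changes in an unfiltered fit. Coding sequences were aligned with Biopython 1.88. By a fixed rule, the text may name all members, Gsdm-like genes, neighbours of the loci (those named are a selection) and up to 3 markers of each cell type. It may also name the 2 to 4 most abundant genes of each pathway list and any called in an edgeR fit. The 5 genes most like Gsdmc and Gsdma may be named too. More than 3 markers are named for neutrophils and macrophages (all 8) and for the upper hair follicle. The 4 scarce protease genes and Ninj1 fall outside the rule, and these and the markers and neighbours named were picked after their values were seen. Subtracting the receptor gene rate was added after seeing the data. 1 gene of the protease list is not reported here.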

Additional observations from a re-analysis of the deposited data

Results flagged for a closer look

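In KO replicate 2, 4 scarce members lay far above the other 4 KO libraries: Gsdmc3 at 3.65 CPM, Gsdmc4 at 7.99 CPM, Gsdma2 at 5.21 CPM and Gsdmd at 1.91 CPM. The gap to the next library passed Dixon's critical value in each case, which chance alone gives in about 1 of 20 groups. This library also had 4.54 counts per kb on nasal receptor genes, and its counts were 1.4 (Gsdmd), 2 (Gsdmc3), 2.1 (Gsdma2) and 4.9 (Gsdmc4) times the number expected at that rate.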

How the results depend on the processing

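The 18 alternatives for KO against WT left Gsdmc between 3.6 and 4.68 and Gsdmc2 between 3.56 and 5.02 on the log2 scale. Gsdmc3 ran from 0.9 to 2.75, Gsdmc4 from 0.42 to 4.28, Gsdma from 0.24 to 0.99 and Gsdma3 from 1.19 to 2.09. Reversed values were those of Gsdmd among libraries ending in br (0.81, against -0.45) and of Gsdme (-0.13 among libraries ending in br, -0.05 with the label ending as covariate, -0.03 without WT replicate 2, and up to 0.41 with 1 library left out), and the cause was not tested. The 1 gene called over all genes became 0 with DESeq2 size factors, in limma voom and among libraries ending in br, 9 without a filter, 137 in DESeq2, 1269 with library weights and 1883 without WT replicate 3 and KO replicates 1 and 2, and 0 to 1 with 1 library left out. Pathway genes called went from 0 to 2 with library weights and 3 without those 3 libraries, and stayed at 0 with 1 library left out. For bl against br, 0 genes became 2383 without a filter and 1888 in DESeq2, and 0 to 12160 with 1 library left out (12160 without KO replicate 1, 4620 without KO replicate 2, 2 without KO replicate 5). Signs there turned for Gsdmc with DESeq2 size factors (-0.01) and without KO replicates 2, 3 and 4 (-0.67, -0.06 and -0.28), Gsdmc2 without KO replicate 1 (-0.08), Gsdmc3 without KO replicate 2 (1.28), Gsdma without KO replicate 1 (0.57) and Gsdma3 without KO replicates 1 and 5 (-0.48 and -0.16) and with the receptor gene rate subtracted (-0.05). With 1 library left out, the highest values were 1.73 for Gsdmc, 1.9 for Gsdmc2 and 1.44 for Gsdma3, and the lowest were -3.19 for Gsdmc3 and -1.28 for Gsdma. Gsdmc4 ran from -4.89 to -2.82. Members that failed a filter have no value there. Without KO replicate 1 or without KO replicate 2 a single br library is left, so nothing is read from the calls of those fits. No paired analysis was possible because the replicate numbers follow the order of deposition and pair no libraries.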

Other observations

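The pseudogene Gsdmcl-ps, which lies next to Gsdmc4 on the opposite strand, was high in the same libraries as that gene. It had 0.34, 0.93 and 2.89 CPM in WT and 2.28, 3.47, 0.5, 0.46 and 0.49 CPM in KO, so that WT replicate 3 and KO replicates 1 and 2 were the 3 highest libraries for both genes. In KO replicate 2 the pseudogene had 20 counts, where 10.5 would be expected at the rate of nasal receptor genes. Over the 8 libraries r with Gsdmc4 was 0.93 and rho 0.79, and r was 0.83 without the 2 libraries farthest from the median of Gsdmc4, a description that rests on 37 counts or fewer per library for the pseudogene. With Gsdmc, r was -0.09 and rho -0.17, and r was 0.18 without the 2 libraries farthest from the median of Gsdmc.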
